A study of Homo sapiens with 18 samples.

Results

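The response of PODO/TERT256 podocytes to TNF-α plus IL-6, a pair of inflammatory cytokines, was measured on smooth topography, by setting the 3 smooth cytokine libraries against the 3 smooth control libraries. These 6 of the 18 RNA-seq libraries of the series were taken by their sample labels. PODO/TERT256 is a human podocyte line immortalised with telomerase, and all groups are of this line. The treated cells grew on smooth 3D hemispheres with TNF-α and IL-6. The controls grew on the same hemispheres without them. The labels state no dose, no duration and not whether replicate libraries were separate cultures, so the p-values may rest on technical spread alone. Where the smooth response was set against another, the libraries were 3 from fractal hemispheres with cytokines and 3 from fractal control hemispheres, and 3 from smooth hemispheres with macrophages made from the THP-1 monocytic line.

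Podocytes are the epithelial cells that wrap the capillaries of the kidney glomerulus and, with the basement membrane, hold back plasma proteins. TNF-α acts through receptors whose adaptors activate the NF-kB transcription factors, which drive chemokines, adhesion molecules and their own inhibitors. IL-6 acts through its receptor and the shared subunit encoded by IL6ST, which activate JAK kinases and STAT transcription factors and, in the liver, the acute phase proteins. In the glomerulus both cytokines are known mediators of inflammatory injury.

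Levels are in CPM (a gene's share of the library's counts, scaled by TMM), given by library in the order of replicates 1, 2 and 3, or as a mean ± SD (n = 3). Log2 fold changes are cytokines over control with their SE, and a gene passed when its adjusted p in edgeR's quasi-likelihood test was under 0.05. The test covered 16129 genes, of which 4144 (25.7%) passed, 2136 higher (13.2%) and 2008 lower (12.4%) with cytokines. The counts given below for each gene list are to be read beside these shares. The median log2 fold change of all genes tested was 0.01. Among genes that passed, 671 were at least 2-fold higher and 366 at least 2-fold lower. At 8-fold or more, 129 were higher and 22 lower. The cytokine and control libraries did not overlap for 43.3% of all genes tested.

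**Figure D1:**
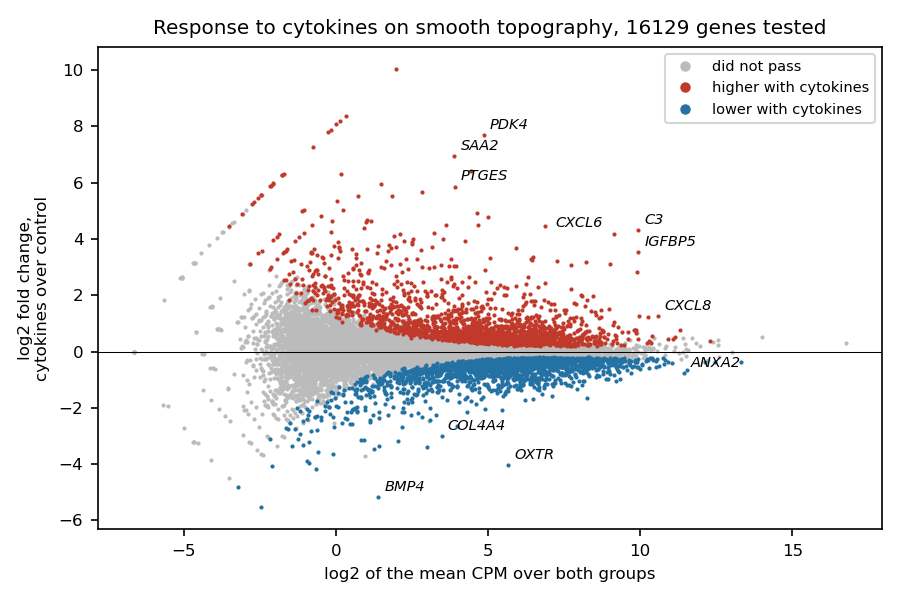
Log2 fold change (cytokines over control, vertical axis) against the log2 mean CPM of both groups (horizontal axis) for the 16129 genes tested on smooth topography, with red points for the 2136 higher genes, blue points for the 2008 lower genes and grey points for genes that did not pass. The 129 genes at least 8-fold higher extend further from 0 than the 22 at least 8-fold lower.

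Library totals ran from 16980396 to 19177212 counts with cytokines and from 13990684 to 17395338 in controls. Smooth cytokines replicate 2 stood apart from its companions: 8.09% of its counts were mitochondrially encoded (95% Wilson interval 8.08 to 8.11), against 4.23% and 4.63% in replicates 1 and 3 and 4.35% to 4.43% in the controls. A chi-square test of counts gave 35.9 and 36.6 per degree of freedom for the pairs with that library and 12.4 for the other cytokine pair, against 2.52 to 2.98 between controls. Its part in the results was not tested beyond leaving it out. Without it 4012 genes passed, 2064 higher and 1948 lower. Intervals and floors cover counting error only.

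Markers of monocytes and macrophages were at or near 0, while some genes on the parietal epithelium list were not. Of 22 markers of monocytes and macrophages 11 were tested and CD14 alone rose. Of the 11, PTPRC, TYROBP, CD53, SPI1, CYBB, LAPTM5, FCER1G and ITGAM passed edgeR's expression filter only through libraries outside these 6. They had 0 to 7 counts in each of the 6, so that their not passing the test says little. The summed level of the list was 5.00 to 5.95 CPM with cytokines and 2.59 to 3.11 CPM in controls. PTPRC, TYROBP, CD163, LYZ and CD53, which define these cells, had no count in any of the 6 libraries. Among endothelial markers PECAM1 (3.84, 3.34 and 1.36 CPM with cytokines, against 0.411, 0.345 and 0.217 CPM in controls) and KDR rose while TIE1, CDH5 (2.55 ± 0.93 CPM with cytokines and 8.54 ± 1.09 CPM in controls) and PLVAP, which is outside the naming rule and was chosen after its values were seen, fell, and 5 of the 10 tested did not pass. The summed list was 67.8 to 79.8 CPM with cytokines and 67.0 to 73.2 CPM in controls, most of it EHD3 (52.6 ± 6.71 CPM with cytokines and 47.1 ± 3.91 CPM in controls), which did not pass. Of 9 tested mesangial and smooth muscle markers NOTCH3 rose, TAGLN and CNN1 fell and 6 did not pass; with fractal THP-1 replicate 3 and smooth cytokines replicate 2 both left out, 2 rose and 4 fell. Their summed level was 311 to 375 CPM with cytokines and 543 to 579 CPM in controls, a difference that lay mostly in TAGLN, an actin-binding protein of smooth muscle (137 ± 25.98 CPM with cytokines and 345 ± 12.2 CPM in controls). Parietal epithelium markers summed to 3360.3 to 3473 CPM with cytokines and 2994 to 3044 CPM in controls, above the mature podocyte markers (172 to 215 CPM with cytokines and 129.8 to 140.5 CPM in controls; sums that are not per length). Of the 9 parietal markers tested CDH6, AKAP12 and PAX8 rose, CD24 and the keratins KRT8, KRT18 and KRT19 fell, and CD44 and CLDN1 did not pass. The parietal markers PAX2, PROM1 and CLDN3 were too low to test. PAX2 had no count in the 6 libraries. PROM1 had 0 counts over the cytokine libraries and 4 over the controls, and CLDN3 had 8 and 10. The tubule list summed to 425 to 487 CPM with cytokines and 341 to 349.7 CPM in controls, nearly all of it PAX8, which both lists hold and which alone of its 4 tested genes rose (458 ± 32.5 CPM with cytokines and 340.0 ± 4.09 CPM in controls). SLC34A1, UMOD and AQP2, which define tubule segments, had no count in the 6 libraries. The part of such cells in the results was not tested. In bulk RNA a smaller share of cells of a type and less RNA per cell cannot be told apart.

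The label of the cells was checked against the defining genes of mature podocytes. NPHS1 (nephrin), a core protein of the slit diaphragm, had no count in any of the 6 libraries. WT1, the podocyte transcription factor, had 8, 2 and 15 counts with cytokines and 0 in all 3 controls, too few to test. SYNPO (synaptopodin), an actin organiser of the foot process, rose (108, 90.1 and 119 CPM with cytokines, against 69.5, 67.00 and 63.1 CPM in controls). PLA2R1, a podocyte surface receptor and an autoantigen of membranous nephropathy, rose (80.4, 56.96 and 58.2 CPM with cytokines, against 24.5, 22.9 and 21.8 CPM in controls), a log2 fold change of 1.49 ± 0.14 (adjusted p = 2.19e-08). NTNG1, a netrin family gene, fell (14.7 ± 1.94 CPM with cytokines and 32.3 ± 3.07 CPM in controls). SYNPO and PLA2R1 were thus detected in all 6 libraries, and nephrin in none.

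The first question is how the receptors of the cytokines and their adaptors responded. Of 25 genes of TNF receptors and adaptors 9 rose and 2 fell, and the median was 0.27 log2. TNFRSF1A, the receptor that most cells carry, rose a little (202, 195 and 179 CPM with cytokines, against 144, 157 and 152 CPM in controls). BIRC3, an E3 ligase of the receptor complex that protects from cell death, rose (216, 179.5 and 186 CPM with cytokines, against 92.7, 93.3 and 91.8 CPM in controls). MAP3K8, a kinase that links NF-kB to the ERK pathway, rose by 1.92 ± 0.19 log2, and CFLAR, which blocks caspase 8, by 0.51 ± 0.07 log2. TNFAIP6, a hyaluronan-binding protein, rose by 1.14 ± 0.20 log2. The count of 2 that fell was 0 without smooth control replicate 3 and 1 without smooth control replicate 2, smooth cytokines replicate 1 or smooth cytokines replicate 2.

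Subunits of NF-kB and some of its inhibitors rose. In the list of NF-kB subunits and inhibitors 12 of 21 rose and 1, the kinase gene IKBKB (-0.48 ± 0.10 log2), fell, with a median of 0.51 log2. TNFAIP3, the ubiquitin-editing enzyme A20 that shuts down the TNF receptor complex, had 553, 493 and 610.5 CPM with cytokines, against 136, 139 and 144 CPM in controls. The libraries of the groups did not overlap, and the log2 fold change was 1.98 ± 0.08 (adjusted p = 2.32e-15). NFKBIA, the inhibitor that holds NF-kB in the cytoplasm, had 131, 143 and 139 CPM with cytokines, against 40.9, 44.9 and 44.2 CPM in controls (1.67 ± 0.09 log2). ZC3H12A, an RNase that degrades inflammatory mRNAs, rose by 1.80 ± 0.09 log2, and TNIP1, a partner of A20, by 0.84 ± 0.09 log2. NFKBIZ, a nuclear cofactor, rose by 0.91 ± 0.10 log2. Among the subunits, which fall outside the naming rule and were chosen after their values were seen, NFKB2 rose by 0.89 ± 0.12 log2, RELB by 0.80 ± 0.11 log2, REL by 0.63 ± 0.16 log2 and NFKB1 by 0.51 ± 0.09 log2.

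**Figure D2:**
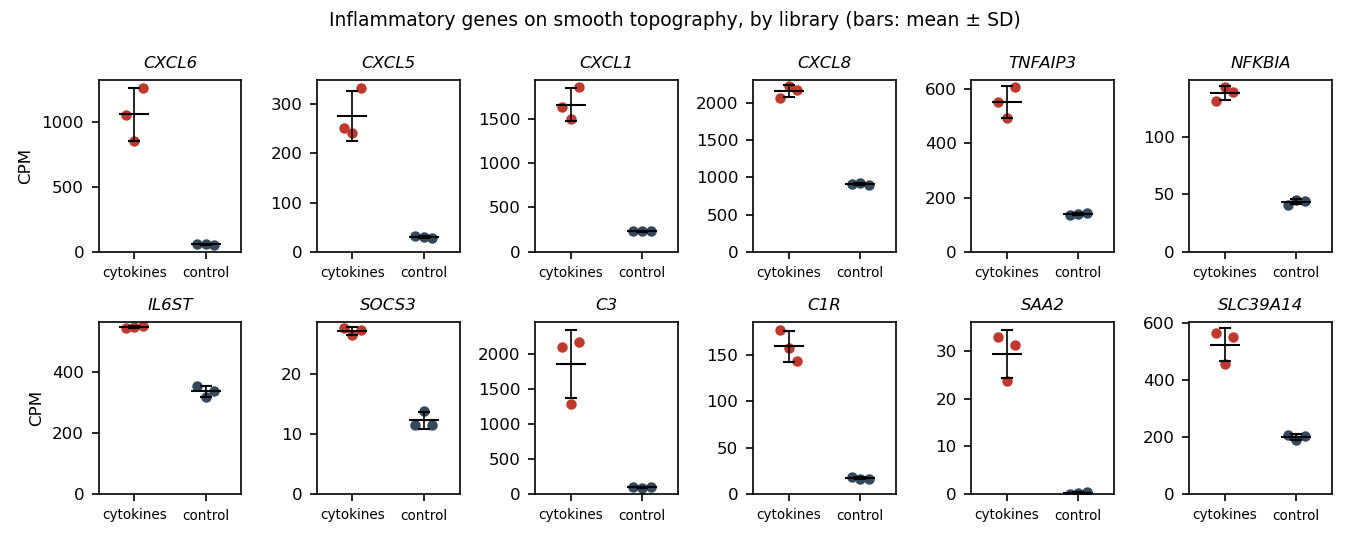
CPM on a linear axis from 0 for 12 inflammatory genes in the 3 cytokine libraries (left, red) and the 3 control libraries (right, dark), with the mean and SD in black. In every panel the 3 cytokine libraries lie above the 3 control libraries, by least for IL6ST and by most for SAA2 in relative terms.

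On the side of IL-6, 11 of 28 receptor, JAK-STAT and feedback genes rose and 2 fell (median 0.24 log2). IL6ST, the signalling subunit gp130, had 546, 550.5 and 553 CPM with cytokines, against 356, 318 and 338 CPM in controls (0.70 ± 0.10 log2; it falls outside the naming rule and was chosen after its values were seen). SOCS3, the feedback inhibitor of that subunit, had 27.7, 26.4 and 27.2 CPM with cytokines, against 11.4, 13.9 and 11.4 CPM in controls (1.14 ± 0.12 log2, adjusted p = 6.43e-08). BCL6, a transcriptional repressor, rose by 0.92 ± 0.11 log2, and JUNB, a member of the AP-1 family, by 1.02 ± 0.11 log2. STAT3 itself had 159 ± 17.8 CPM with cytokines and 145 ± 2.31 CPM in controls and did not pass (adjusted p = 0.205); without smooth cytokines replicate 2 it was 0.23 higher on the log2 scale and passed (adjusted p = 0.0237). IL11, a cytokine that shares the IL6ST subunit, rose (24.9, 28.3 and 18.1 CPM with cytokines, against 8.10, 8.57 and 7.97 CPM in controls). MYC, the growth-promoting transcription factor, fell (52.3, 71.4 and 53.7 CPM with cytokines, against 120.5, 118 and 119 CPM in controls; -1.01 ± 0.13 log2, adjusted p = 2.46e-06). The number that fell in this list was 1 without smooth control replicate 2 or smooth cytokines replicate 3.

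CXC chemokine genes rose. Of 8 tested, 7 rose and none fell, and the median was 2.35 log2. The neutrophil-attracting chemokines CXCL1, CXCL2, CXCL3, CXCL5, CXCL6 and CXCL8 lie together on chromosome 4. The stretch from 110 to 11 bases before the RefSeq gene start (GRCh38.p14) is shown for each, since all 6 rose together, beside CXCL12 on chromosome 10, a chemokine of another receptor, and NFKBIA on chromosome 14. Each is written 5′ to 3′ on the strand of the gene, and capitals mark matches to GGNNNTTCC on either strand, a letter pattern of NF-kB sites.
CXCL6 (chr4:73836568-73836667, plus strand): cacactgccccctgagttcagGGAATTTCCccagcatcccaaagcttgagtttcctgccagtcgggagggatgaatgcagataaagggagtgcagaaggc
CXCL5 (chr4:73998688-73998787, minus strand): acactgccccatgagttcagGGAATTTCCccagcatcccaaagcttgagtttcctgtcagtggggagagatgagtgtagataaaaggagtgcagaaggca
CXCL1 (chr4:73869283-73869382, plus strand): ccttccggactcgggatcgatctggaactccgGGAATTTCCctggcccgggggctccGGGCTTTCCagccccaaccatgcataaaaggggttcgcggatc
CXCL2 (chr4:74099206-74099305, minus strand): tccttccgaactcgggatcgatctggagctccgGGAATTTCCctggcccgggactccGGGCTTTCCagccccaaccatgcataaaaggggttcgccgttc
CXCL3 (chr4:74038700-74038799, minus strand): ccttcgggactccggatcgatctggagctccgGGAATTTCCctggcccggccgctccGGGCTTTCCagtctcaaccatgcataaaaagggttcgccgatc
CXCL8 (chr4:73740459-73740558, plus strand): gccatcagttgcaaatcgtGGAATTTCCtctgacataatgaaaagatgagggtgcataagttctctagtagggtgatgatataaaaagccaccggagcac
CXCL12 (chr10:44385108-44385207, minus strand): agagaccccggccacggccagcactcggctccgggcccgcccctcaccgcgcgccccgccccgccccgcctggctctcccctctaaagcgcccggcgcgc
NFKBIA (chr14:35404760-35404859, minus strand): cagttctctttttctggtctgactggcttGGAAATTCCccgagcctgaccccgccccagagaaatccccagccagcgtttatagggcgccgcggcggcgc

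The same 9 letters, GGAATTTCC, begin between 77 and 91 bases before the start in all 6 neutrophil chemokine genes. CXCL1, CXCL2 and CXCL3 hold GGGCTTTCC as well, 53 bases before the start, whereas CXCL5, CXCL6 and CXCL8 do not. No match stands in the CXCL12 window, and NFKBIA has 1 in the stretch shown. In the 300-base windows around the start, from 250 bases before to 50 after, the pattern was present in 6 of the 7 CXC chemokine genes that rose and in 6 of the 11 NF-kB subunit and inhibitor genes that rose and had a sequence. It was also present in 20.1% of all 27305 windows, in 23.1% of the 11386 windows of genes tested, in 21.7% of those of genes that rose and in 22.3% of those of genes that fell. The windows shown for CXCL1, CXCL2 and CXCL3 are alike over most of their length, as are those for CXCL5 and CXCL6. The chemokine matches are therefore not independent of one another. A letter match is a description and not a bound site. A STAT pattern, TTCNNNGAA, was found in 6.51% of the windows of genes tested, in 5.74% of those of genes that rose and in 6.86% of those of genes that fell and in 7.88% of all windows. For genes at least 8-fold higher, the STAT pattern was in 9 of 82 windows (11%) and GGNNNTTCC in 19 (23.2%).

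The chemokines themselves rose by different amounts. CXCL6 had 1057, 860.1 and 1268 CPM with cytokines, against 56.5, 62.6 and 55.1 CPM in controls, a log2 fold change of 4.19 ± 0.14 (adjusted p = 1.53e-15). CXCL5 had 252, 242 and 334 CPM with cytokines, against 31.1, 30.3 and 27.4 CPM in controls (3.22 ± 0.14 log2). The 3 cytokine libraries of both genes were all above every control library. CXCL1 had 1630.1, 1495 and 1857 CPM with cytokines, against 228, 231 and 238 CPM in controls (2.84 ± 0.09 log2), and CXCL8, the gene of interleukin 8, had 2069, 2232 and 2182 CPM with cytokines, against 906, 922 and 897 CPM in controls (1.25 ± 0.08 log2). CXCL2 rose by 1.85 ± 0.16 log2. CXCL3 rose by 1.73 ± 0.17 log2 and falls outside the naming rule. CXCL12, which holds progenitor cells and lymphocytes in tissues, rose from a low level (7.19, 8.70 and 8.46 CPM with cytokines, against 0.47, 0.288 and 0.579 CPM in controls), by 4.19 ± 0.31 log2. The interferon-dependent chemokines CXCL9, CXCL10 and CXCL11 had no count in any of the 6 libraries, which allows at most 3 counts over each group. Of 5 CC and CX3C chemokines 4 rose, among them CCL2, CCL20, which attracts lymphocytes and dendritic cells, and CX3CL1, the membrane-bound chemokine fractalkine. CCL5, outside the naming rule, also rose, but had only 8 counts over the cytokine libraries and 0 over the controls. It passed edgeR's expression filter only through other libraries of the series. The count that rose was 3 with only the groups compared. It was also 3 without any 1 of the control libraries or smooth cytokines replicate 1 or 2. CCL2 varied between its cytokine libraries (96.4, 89.01 and 156 CPM with cytokines, against 34.1, 36.2 and 35.1 CPM in controls), and CX3CL1 had 4.87, 5.42 and 6.55 CPM with cytokines, against 0.235, 1.09 and 0.435 CPM in controls (3.22 ± 0.43 log2, adjusted p = 2.82e-06; 4.07 log2 without smooth control replicate 2).

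Among interleukins, their receptors and colony-stimulating factors 10 of 24 rose and 3 fell (median 0.50 log2). IL33, an alarmin of epithelial and stromal cells, rose (77.3, 69.6 and 38.4 CPM with cytokines, against 1.76, 2.65 and 2.25 CPM in controls), with a log2 fold change of 4.79 ± 0.28 (adjusted p = 1.1e-09). No cytokine library of IL33 overlapped the controls. IL1R1, the signalling receptor of IL-1, had 393, 295 and 364 CPM with cytokines, against 78.6, 76.1 and 72.1 CPM in controls (2.21 ± 0.19 log2), and IL18R1, a receptor subunit for IL-18, rose by 3.88 ± 0.35 log2. CSF1, the macrophage growth factor, had 188, 170.3 and 220.2 CPM with cytokines, against 57.6, 54.98 and 58.8 CPM in controls (1.76 ± 0.10 log2). IL4R rose by 0.73 ± 0.08 log2 and IL7R by 2.17 ± 0.30 log2. IL6 had 154, 156 and 183 CPM with cytokines, against 34.6, 32.7 and 33.8 CPM in controls (2.29 ± 0.09 log2). TSLP, an epithelial cytokine of allergic inflammation, fell (3.41, 5.36 and 3.66 CPM with cytokines, against 11.04, 12.8 and 10.4 CPM in controls; -1.46 ± 0.26 log2). IL12A fell (log2 fold change -2.44 ± 0.61). CSF2, the gene of GM-CSF, had 4.20, 6.02 and 11.9 CPM with cytokines, against 3.23, 3.22 and 2.68 CPM in controls (1.27 ± 0.30 log2, adjusted p = 0.00206), but its fold rested on smooth cytokines replicate 3, without which it was 0.72 and did not pass (adjusted p = 0.0673).

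ICAM1, the ligand of leukocyte integrins, rose (87.8, 81.7 and 74.9 CPM with cytokines, against 15.7, 17.5 and 18.5 CPM in controls; 2.24 ± 0.09 log2). Of 17 adhesion genes 4 rose and 3 fell, with a median of 0.10 log2, beside 13.2% higher and 12.4% lower among all genes tested. BST2, a membrane protein induced by interferon, rose (2.16 ± 0.3 CPM with cytokines and 0.695 ± 0.3 CPM in controls), as did CD47, a signal against phagocytosis (0.32 ± 0.08 log2). PVR, a nectin-like receptor that natural killer cells recognise, fell (114, 135 and 123 CPM with cytokines, against 227, 220.4 and 226 CPM in controls; -0.85 ± 0.08 log2).

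Serum amyloid A, ceruloplasmin and zinc transporter genes of the acute phase rose. SAA1 had 44.9, 35.7 and 48.8 CPM with cytokines, against 0.352, 0.23 and 1.01 CPM in controls, and SAA2 had 33.1, 23.7 and 31.4 CPM with cytokines, against 0.0587, 0.23 and 0.435 CPM in controls; they are near-identical paralogs whose reads may be shared, so that the level of each is uncertain. The copper oxidase gene CP rose (4.81, 4.29 and 3.88 CPM with cytokines, against 0.117, 0.288 and 0.0724 CPM in controls; 4.65 ± 0.57 log2) and SAA4 rose (3.67 ± 0.73 log2). SLC39A14, the zinc transporter that IL-6 induces in the liver, had 565, 457 and 550.4 CPM with cytokines, against 208, 190.2 and 202 CPM in controls (1.39 ± 0.08 log2, adjusted p = 9.98e-13). In all 6 of 16 tested genes of the list rose and 1 fell (median 1.31 log2). The number that fell was 3 without smooth cytokines replicate 2, 4 with fractal THP-1 replicate 3 left out as well, and 0 without any one of the other 5 libraries. The size of 4 of these responses moved with single control libraries. Log2 fold changes were 7.18 (SAA1), 7.59 (SAA2) and 4.92 (SAA4) without smooth control replicate 3, and 5.37 (CP) and 3.06 (SAA4) without smooth control replicate 2. The liver proteins CRP and SERPINA3 had no count in the 6 libraries. The gene that fell was PTX3, a pentraxin of innate immunity (134, 250.5 and 130.3 CPM with cytokines, against 266, 258 and 265 CPM in controls; -0.61 ± 0.21 log2, adjusted p = 0.0467). Without smooth cytokines replicate 2 the log2 fold change was -0.99, and without any one of the other cytokine or control libraries PTX3 did not pass (adjusted p from 0.0913 to 0.163).

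Of the complement components, the plasma cascade that marks surfaces for phagocytosis, C3, CFB and the classical proteases C1R and C1S rose. Other genes of the classical route were absent or too low to test. C1QA, C1QB and C1QC had no count in the 6 libraries. C2 had 2 counts over the cytokine libraries and 5 over the controls, and C4B had 7 and 17. C3, the protein on which all routes converge, had 2097, 1292 and 2170.0 CPM with cytokines, against 97.7, 86.8 and 93.9 CPM in controls (4.32 ± 0.14 log2). C1R, a protease of the first classical complex, had 177, 157 and 143 CPM with cytokines, against 18.03, 16.2 and 16.2 CPM in controls (3.24 ± 0.13 log2). C1S, its partner, rose by 3.67 ± 0.16 log2. CFB, the protease of the alternative route, rose (13.3, 8.16 and 13.1 CPM with cytokines, against 1.17, 1.44 and 0.869 CPM in controls; 3.29 ± 0.25 log2), and C5 fell (3.05, 2.20 and 3.55 CPM with cytokines, against 5.76, 6.67 and 6.23 CPM in controls; -1.08 ± 0.27 log2). In the list 5 of 12 rose and 1 fell. Of the regulators 2 of 9 rose, among them CLU (clusterin), by 3.02 ± 0.23 log2. CD46, a membrane brake, had 184 ± 23.4 CPM with cytokines and 171 ± 2.42 CPM in controls and did not pass (adjusted p = 0.382).

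Some antigen presentation genes rose. Of 18 genes of MHC class I and peptide loading 10 rose, 8 did not pass and none fell (median 0.27 log2). The count that rose was 6 without smooth control replicate 2 or 3. TAPBP (tapasin), which loads peptides, had 216, 235 and 243 CPM with cytokines, against 90.7, 98.5 and 91.8 CPM in controls (adjusted p = 2.32e-12), and HLA-B had 164, 186 and 150.2 CPM with cytokines, against 95.3, 97.4 and 93.6 CPM in controls (0.81 ± 0.10 log2). ERAP1, the peptide-trimming enzyme, rose by 0.64 ± 0.08 log2. HLA genes share reads with one another, so the level of each is uncertain. Of the immunoproteasome list, whose members cut antigens into peptides, 4 of 11 rose and 7 did not pass (median -0.05 log2), with a summed level of 587 to 644 CPM with cytokines and 608 to 619.9 CPM in controls. Of the 4, only PSMB10 (5.12, 5.06 and 6.77 CPM with cytokines, against 3.35, 1.84 and 2.46 CPM in controls; 1.15 ± 0.26 log2) passed in every leave-one-out run, in which 1 or 2 rose. The runs with 1 were those without smooth control replicate 2, smooth control replicate 3 or smooth cytokines replicate 2, and those with 2 were without smooth control replicate 1, smooth cytokines replicate 1 or smooth cytokines replicate 3. No gene of that list fell with all libraries in edgeR, but 1 fell without smooth cytokines replicate 2. The same number fell with DESeq2, with limma-voom and with only the groups compared, among other settings. Of 6 class II genes tested 3 rose and none fell, at a summed level of 13.3 CPM with cytokines and 6.63 CPM in controls. The class II chain genes HLA-DRA, HLA-DRB1, HLA-DQA1 and HLA-DQB1 had no count in the 6 libraries. CD74, the invariant chain, rose (3.05, 3.81 and 2.62 CPM with cytokines, against 0.587, 0.92 and 0.217 CPM in controls). CTSS, a lysosomal protease, rose as well (4.75, 4.41 and 6.82 CPM with cytokines, against 1.76, 2.42 and 2.82 CPM in controls).

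Interferon-stimulated genes rose in part. 15 of 44 rose and 1, SP100 (-0.34 ± 0.08 log2), fell, with a median of 0.43 log2. GBP2, a guanylate-binding protein, had 26.2, 22.04 and 23.1 CPM with cytokines, against 4.17, 5.06 and 5.07 CPM in controls (2.32 ± 0.16 log2). IRF1, a transcription factor common to TNF and interferon signalling, rose by 0.69 ± 0.15 log2, and PARP14 by 0.79 ± 0.08 log2. IFIH1, a sensor of double-stranded RNA, rose by 1.03 ± 0.19 log2. IFNB1 and RSAD2 were at 3 counts or fewer over each group. The number that fell was 2 without smooth cytokines replicate 2. Among the apolipoprotein L genes, of which APOL1 carries risk alleles for human kidney disease, 3 of 4 rose. APOL1 had 112, 109 and 105 CPM with cytokines, against 47.5, 46.6 and 45.9 CPM in controls (1.22 ± 0.08 log2, adjusted p = 1.17e-11). APOL2 rose by 0.92 ± 0.12 log2 and APOL3 had 5.91, 4.95 and 2.95 CPM with cytokines, against 1.41, 1.78 and 1.45 CPM in controls (1.56 ± 0.29 log2). For each of the 3 genes every cytokine library lay above every control library.

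The enzymes that make prostaglandin E2 rose, and so did receptors of prostaglandins E2 and F and an exporter. PLA2G4A, which frees arachidonic acid, had 41.5, 44.03 and 35.1 CPM with cytokines, against 21.5, 22.3 and 19.05 CPM in controls (0.94 ± 0.14 log2). PTGS2, which encodes cyclooxygenase 2, had 421, 425 and 289.9 CPM with cytokines, against 46.8, 43.6 and 44.2 CPM in controls (3.08 ± 0.12 log2), and PTGES, the inducible synthase of prostaglandin E2, had 27.9, 25.9 and 34.4 CPM with cytokines, against 0.47, 0.46 and 0.579 CPM in controls (5.86 ± 0.28 log2, adjusted p = 3.17e-14). PTGER2, a receptor of prostaglandin E2, had 44.9, 28.2 and 37.1 CPM with cytokines, against 13.04, 12.9 and 11.01 CPM in controls (1.57 ± 0.15 log2), and PTGFR, the receptor of prostaglandin F, 37.9, 29.1 and 33.1 CPM with cytokines, against 6.93, 5.92 and 7.39 CPM in controls (2.31 ± 0.18 log2). ABCC4, which exports prostaglandins, rose by 1.15 ± 0.12 log2. PTGIS, the prostacyclin synthase, fell slightly (158, 147 and 165 CPM with cytokines, against 184, 186 and 187 CPM in controls; -0.24 ± 0.07 log2). In the whole list 8 of 23 rose and 1 fell (median 0.56 log2).

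Genes of glucocorticoid action rose in 13 of 19 cases and fell in 3, with a median of 0.52 log2. HSD11B1, which regenerates cortisol inside cells, had 16.9, 17.99 and 7.31 CPM with cytokines, against 0, 0.345 and 0.507 CPM in controls (5.66 ± 0.65 log2; 5.04 log2 without smooth control replicate 1 and 6.27 without smooth control replicate 3). Classical targets of the glucocorticoid receptor rose as well. CEBPD, a transcription factor, had 41.3, 45.5 and 36.1 CPM with cytokines, against 13.3, 12.9 and 15.1 CPM in controls (1.57 ± 0.13 log2). FKBP5, a chaperone of the receptor, had 235, 221 and 223 CPM with cytokines, against 161, 152 and 158 CPM in controls (0.53 ± 0.07 log2). ZBTB16 rose by 2.05 ± 0.19 log2, KLF9 by 0.95 ± 0.09 log2 and DUSP1, a phosphatase that silences MAP kinases, by 0.53 ± 0.07 log2. CEBPD is a known STAT3 target as well. SGK1 and ANXA1 (annexin A1), also known glucocorticoid targets, fell (log2 fold changes -0.60 ± 0.14 and -0.62 ± 0.09). ERRFI1, a feedback inhibitor of the EGF receptor, fell (log2 fold change -1.13 ± 0.14).

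A kinase of pyruvate dehydrogenase rose and its opposing phosphatases fell. PDK4, a kinase that inactivates pyruvate dehydrogenase, had 77.8, 63.4 and 32.1 CPM with cytokines, against 0.411, 0.115 and 0.29 CPM in controls (7.70 ± 0.39 log2, adjusted p = 1.79e-11), so that the lowest cytokine library was far above the highest control. The opposing phosphatases PDP1 and PDP2 fell (log2 fold changes -0.54 ± 0.08 and -0.57 ± 0.12). CPT1A, which carries fatty acids into mitochondria, had 136, 129 and 137 CPM with cytokines, against 70.8, 71.03 and 75.2 CPM in controls (0.89 ± 0.07 log2). PLIN2, the coat of lipid droplets, had 239, 228 and 193 CPM with cytokines, against 77.6, 67.2 and 60.8 CPM in controls (1.68 ± 0.10 log2), and ANGPTL4, an inhibitor of lipoprotein lipase, 504, 586 and 527 CPM with cytokines, against 55.9, 60.3 and 63.1 CPM in controls (3.17 ± 0.10 log2). FOXO1, a transcription factor that insulin restrains, rose by 1.21 ± 0.10 log2. Across the list 11 of 32 rose and 6 fell (median 0.19 log2). HADHB, of the oxidation spiral itself, had 101 ± 8.55 CPM with cytokines and 94.7 ± 3.96 CPM in controls and did not pass (adjusted p = 0.434). In lipid synthesis the counts were near those of all genes tested (13.2% higher and 12.4% lower), with 4 of 33 genes higher and 6 lower. SCD, the stearoyl-CoA desaturase, fell (65.7, 66.4 and 58.7 CPM with cytokines, against 126, 130.2 and 132 CPM in controls; -1.03 ± 0.08 log2), while INSIG1 rose (0.66 ± 0.14 log2).

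Ligands, antagonists and targets of the BMP family changed. Of 32 genes 16 rose and 7 fell (median 0.25 log2). Of the ligands, BMP2 had 84.9, 63.2 and 85.2 CPM with cytokines, against 19.6, 19.04 and 19.9 CPM in controls (2.00 ± 0.11 log2) while BMP4 had 0.0609, 0 and 0.327 CPM with cytokines, against 4.82, 5.52 and 5.00 CPM in controls (-5.16 ± 0.44 log2; -7.11 without smooth cytokines replicate 3). GDF6 fell (-0.94 ± 0.13 log2), and GDF15, a stress-induced member of the wider family, fell as well (-1.29 ± 0.15 log2). Of the antagonists, NOG (noggin) fell (2.50, 4.65 and 3.88 CPM with cytokines, against 8.34, 9.14 and 10.3 CPM in controls; -1.33 ± 0.23 log2); GREM1 (gremlin) rose (704, 541 and 1004 CPM with cytokines, against 259, 261 and 263 CPM in controls; 1.52 ± 0.14 log2) and CHRD (chordin) rose (29.8, 19.9 and 28.3 CPM with cytokines, against 4.29, 5.75 and 6.30 CPM in controls; 2.26 ± 0.23 log2), both outside the naming rule and chosen after their values were seen. The targets rose: ID1 had 84.05, 99.3 and 97.9 CPM with cytokines, against 35.5, 32.3 and 34.4 CPM in controls (1.46 ± 0.10 log2), ID3 101, 117 and 134 CPM with cytokines, against 27.7, 28.3 and 29.8 CPM in controls (2.04 ± 0.11 log2), and ATOH8, a transcription factor induced by BMP, 54.1, 54.3 and 64.9 CPM with cytokines, against 11.6, 9.78 and 9.78 CPM in controls (2.47 ± 0.14 log2). SMAD9, a BMP-regulated SMAD, rose by 1.37 ± 0.13 log2. Every library with cytokines was above every control for these 4 genes.

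In the TGF-beta list 10 of 25 rose and 3 fell (median 0.17 log2). PMEPA1, a feedback target, had 272, 248 and 288 CPM with cytokines, against 97.2, 95.9 and 94.7 CPM in controls (1.49 ± 0.08 log2), and INHBA, the subunit of activin A, 876, 749 and 795 CPM with cytokines, against 446, 429 and 435 CPM in controls (0.89 ± 0.07 log2). SMAD3 rose by 0.66 ± 0.07 log2 and LTBP3, which binds the latent ligand, by 1.18 ± 0.13 log2. TGFB1 had 203 ± 18.8 CPM with cytokines and 181 ± 2.04 CPM in controls and did not pass (adjusted p = 0.193), and TGFB2 fell (-0.50 ± 0.13 log2).

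Collagen IV and laminin genes of the glomerular basement membrane split. In the kidney, podocytes make the α3α4α5 collagen IV network, and α5 also pairs with α6. COL4A3 had 0.548, 0.238 and 0.273 CPM with cytokines, against 4.11, 2.99 and 2.46 CPM in controls (-3.16 ± 0.48 log2), and COL4A4 had 1.22, 3.22 and 2.89 CPM with cytokines, against 18.6, 19.8 and 20.9 CPM in controls (-3.01 ± 0.23 log2, adjusted p = 2.35e-10). COL4A5 rose (426, 339 and 330.0 CPM with cytokines, against 223, 224 and 225 CPM in controls; 0.70 ± 0.12 log2), and COL4A6 rose as well (85.2, 74.8 and 60.9 CPM with cytokines, against 46.7, 45.8 and 40.05 CPM in controls; 0.73 ± 0.12 log2). NID2 (nidogen 2), which joins laminin to collagen IV, had 236, 166 and 195 CPM with cytokines, against 36.7, 36.9 and 37.6 CPM in controls (2.43 ± 0.10 log2). LAMB3, a chain of laminin 332, rose by 0.74 ± 0.11 log2, and LAMB1 fell (log2 fold change -0.49 ± 0.08). In the list 8 of 23 rose and 4 fell (median 0.18 log2).

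**Figure D3:**
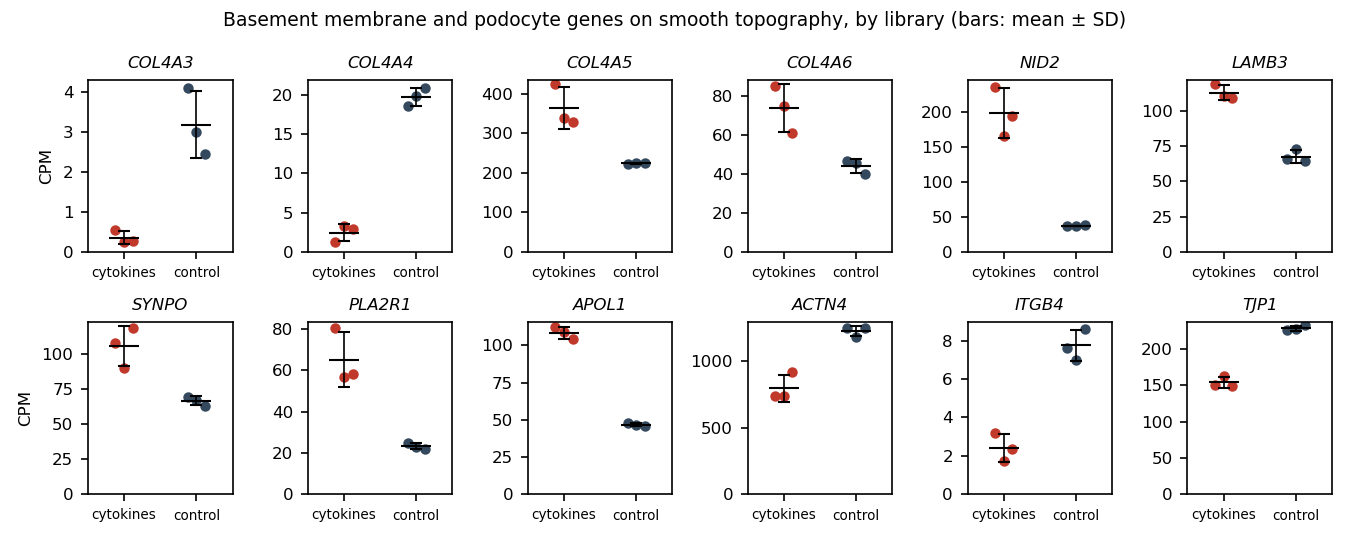
CPM on a linear axis from 0 for 12 basement membrane and podocyte genes in the 3 cytokine libraries (left, red) and the 3 control libraries (right, dark), with the mean and SD in black. COL4A3, COL4A4, ACTN4, ITGB4 and TJP1 lie lower with cytokines and the other 7 genes higher, without overlap between the groups in any panel.

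Podocyte structural genes moved in both directions. 15 of 36 tested rose and 8 fell, with a median of -0.01 log2. The number that rose was 9 without smooth cytokines replicate 1, and the number that fell was 14 when fractal THP-1 replicate 3 and smooth cytokines replicate 2 were both left out. ACTN4, the actinin mutated in a familial glomerulosclerosis, had 736, 741 and 917 CPM with cytokines, against 1250.2, 1184 and 1250.3 CPM in controls (-0.62 ± 0.09 log2). EZR (ezrin), which ties podocalyxin to actin, fell (-0.59 ± 0.07 log2), and so did the junction scaffold TJP1 (-0.57 ± 0.10 log2) and vimentin, VIM (-0.50 ± 0.08 log2). ITGB4, an integrin subunit of hemidesmosomes, had 3.17, 1.73 and 2.35 CPM with cytokines, against 7.63, 7.02 and 8.62 CPM in controls (-1.68 ± 0.23 log2). Those that rose included PDPN (podoplanin; 192, 185 and 208 CPM with cytokines, against 107, 113 and 107 CPM in controls), CDKN1C, a cell cycle inhibitor of mature podocytes (28.2, 30.03 and 39.5 CPM with cytokines, against 10.2, 11.1 and 12.7 CPM in controls), and FOXC1, a podocyte transcription factor (0.98 ± 0.14 log2). Of the junction genes, JUP (plakoglobin) rose (284, 241 and 293 CPM with cytokines, against 135, 137 and 143 CPM in controls; 0.98 ± 0.08 log2) and CDH13 rose (0.94 ± 0.11 log2), while L1CAM fell (0.487, 0.417 and 1.47 CPM with cytokines, against 8.40, 7.19 and 6.59 CPM in controls; -3.19 ± 0.38 log2, or -4.03 without smooth cytokines replicate 3) and DSP (desmoplakin) fell (-0.39 ± 0.08 log2).

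Stromal matrix genes moved in both directions. 12 of 39 genes rose and 12 fell (median 0.24 log2). DCN (decorin), a proteoglycan that binds collagen and TGF-beta, had 244, 168 and 263 CPM with cytokines, against 10.3, 10.6 and 9.99 CPM in controls (4.45 ± 0.16 log2), and LUM (lumican), its relative, 141, 121 and 123 CPM with cytokines, against 25.3, 25.6 and 22.7 CPM in controls (2.38 ± 0.11 log2). BGN (biglycan), of the same family, fell (8.47, 8.64 and 6.44 CPM with cytokines, against 12.7, 16.3 and 17.1 CPM in controls; -0.97 ± 0.19 log2). MFAP5, a microfibril glycoprotein, fell (6.03, 9.35 and 6.39 CPM with cytokines, against 26.9, 36.1 and 33.3 CPM in controls; -2.15 ± 0.17 log2), and VCAN (versican) fell (log2 fold change -0.55 ± 0.10). COL6A2 rose by 0.76 ± 0.09 log2 and COL6A3, the partner chain of collagen VI, fell (log2 fold change -0.60 ± 0.10). HAS2, a hyaluronan synthase, rose by 1.09 ± 0.12 log2, and HAS3 fell (log2 fold change -0.73 ± 0.13). FN1 (fibronectin) took 13.5%, 9.28% and 12.8% of the counts of the cytokine libraries, against 10.1%, 9.84% and 10.1% of those of the controls, and did not pass (adjusted p = 0.0691). Without smooth cytokines replicate 2 its log2 fold change was 0.44 and passed (adjusted p = 0.000984).

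Proteases and their inhibitors also turned in both directions. Of 26 matrix proteases and TIMPs 12 rose and 5 fell. MMP2, a gelatinase, had 1107 ± 92.6 CPM with cytokines and 658 ± 5.75 CPM in controls (0.75 ± 0.08 log2), and ADAMTS5, an aggrecanase, 294, 189 and 321 CPM with cytokines, against 105, 103 and 102 CPM in controls (1.38 ± 0.14 log2). MMP14, the membrane activator of MMP2, fell (1648, 1777 and 1639 CPM with cytokines, against 2180.2, 2172 and 2196 CPM in controls; -0.37 ± 0.08 log2). MMP1 (-0.63 ± 0.10 log2) and ADAMTS1 (-0.80 ± 0.09 log2) fell too. Of 20 genes of plasminogen activation and coagulation 8 rose and 8 fell. The anticoagulant side rose in THBD (thrombomodulin), with 22.1, 16.1 and 19.9 CPM with cytokines, against 1.88, 2.24 and 2.82 CPM in controls (3.07 ± 0.20 log2), and in TFPI, the inhibitor of tissue factor (272, 284 and 191 CPM with cytokines, against 139.8, 125 and 136 CPM in controls; 0.90 ± 0.12 log2). F3, tissue factor itself, fell (89.96, 132 and 101 CPM with cytokines, against 171, 166 and 163 CPM in controls; -0.63 ± 0.10 log2), and PROCR, the endothelial protein C receptor, fell (log2 fold change -0.93 ± 0.15). ANXA2, a cell-surface docking site for plasminogen, fell (1895, 2361 and 1947 CPM with cytokines, against 3463, 3599.9 and 3545 CPM in controls; -0.77 ± 0.09 log2). SERPINB2, an inhibitor of plasminogen activators, rose (20.1, 26.3 and 30.8 CPM with cytokines, against 7.93, 6.21 and 6.74 CPM in controls; 1.89 ± 0.17 log2). TNFRSF11B (osteoprotegerin), a decoy receptor, rose by 2.45 ± 0.16 log2.

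More genes of the IGF axis rose than fell. 9 of 17 genes rose and 2 fell, with a median of 0.43 log2; the number that fell was 0 or 1 without smooth control replicate 1, 2 or 3 or smooth cytokines replicate 1 or 3. IGFBP5, an IGF-binding protein, had 2159.6, 1591 and 1651 CPM with cytokines, against 155, 149.9 and 158 CPM in controls (3.54 ± 0.11 log2), and IGFBP3, the main carrier in plasma, 729, 647 and 477 CPM with cytokines, against 219, 212 and 228 CPM in controls (1.49 ± 0.10 log2). PAPPA, a protease that releases IGF from its carriers, had 557, 475 and 571 CPM with cytokines, against 223, 202 and 219 CPM in controls (1.32 ± 0.09 log2), and STC1 (stanniocalcin 1), which inhibits that protease, 75.6, 62.6 and 58.5 CPM with cytokines, against 12.6, 13.2 and 15.3 CPM in controls (2.26 ± 0.18 log2). The insulin and IGF receptors INSR and IGF1R rose by 1.26 ± 0.17 log2 and 0.43 ± 0.07 log2. IGF1, the ligand, had no count in the 6 libraries.

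Receptors of vasoactive peptides moved in both directions. OXTR, the oxytocin receptor, had 4.81, 5.18 and 7.20 CPM with cytokines, against 97.95, 95.01 and 93.2 CPM in controls (-4.05 ± 0.14 log2, adjusted p = 8.71e-17). EDN1 (endothelin 1), a vasoconstrictor that podocytes also respond to, fell (7.25, 10.5 and 12.01 CPM with cytokines, against 33.6, 33.4 and 33.7 CPM in controls; -1.76 ± 0.15 log2), and S1PR1, a sphingosine phosphate receptor, fell (log2 fold change -0.92 ± 0.14). BDKRB2, the constitutive bradykinin receptor, rose (9.07, 6.20 and 4.20 CPM with cytokines, against 0.529, 0.575 and 0.362 CPM in controls; 3.68 ± 0.34 log2), and ADM, the vasodilator adrenomedullin, rose by 0.89 ± 0.14 log2. EDNRA, an endothelin receptor, had 72.03 ± 1.73 CPM with cytokines and 75.5 ± 6.09 CPM in controls and did not pass (adjusted p = 0.682). In that list 6 of 21 rose and 3 fell, beside 13.2% higher and 12.4% lower among all genes tested, so the falls were near that share. In the VEGF, angiopoietin, FGF and PDGF families 7 of 22 rose and 7 fell, with 4 rising without smooth control replicate 2, smooth control replicate 3 or smooth cytokines replicate 1. PDGFRA, a receptor of fibroblasts, rose (6.03, 3.57 and 4.58 CPM with cytokines, against 0.0587, 0.863 and 0.29 CPM in controls; 3.50 ± 0.44 log2, or 4.79 without smooth control replicate 2), as did VEGFB (0.78 ± 0.14 log2), and FGF5 fell (22.1, 28.8 and 30.02 CPM with cytokines, against 57.6, 63.8 and 59.4 CPM in controls; -1.16 ± 0.11 log2).

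Oxidative stress genes rose in 11 of 31 cases and fell in 4 (median 0.20 log2), the falls being near the 12.4% of all genes tested. SOD2, the superoxide dismutase of mitochondria, had 1005, 800.1 and 988 CPM with cytokines, against 107, 111 and 105 CPM in controls (3.12 ± 0.11 log2), and GPX3, a secreted glutathione peroxidase, 76.8, 69.4 and 38.1 CPM with cytokines, against 6.75, 5.87 and 5.58 CPM in controls (3.33 ± 0.23 log2). GPX4, which detoxifies lipid peroxides, rose by 0.91 ± 0.09 log2 and CYBA, a subunit of NADPH oxidases, by 1.21 ± 0.19 log2. The thioredoxin genes TXN and TXNRD1 fell (log2 fold changes -0.46 ± 0.09 and -0.42 ± 0.10), as did PRDX3, a mitochondrial peroxiredoxin (-0.48 ± 0.08 log2). FTH1, the ferritin heavy chain that stores iron, had 1418, 1336 and 1502 CPM with cytokines, against 559.6, 585 and 611 CPM in controls (1.28 ± 0.31 log2, adjusted p = 0.00773), and its reads can be shared with its many processed copies.

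Survival genes gave no single direction, with 10 of 34 higher and 7 lower (median 0.10 log2) and 6 higher without smooth control replicate 1 or 2. TNFSF10, the death ligand TRAIL, rose (17.3, 14.4 and 15.6 CPM with cytokines, against 3.46, 4.54 and 3.77 CPM in controls; 2.00 ± 0.17 log2), as did FAS, a death receptor (0.79 ± 0.11 log2), and the pro-apoptotic genes BCL2L11 (21.1, 13.8 and 18.1 CPM with cytokines, against 3.93, 5.29 and 4.56 CPM in controls; 1.94 ± 0.17 log2) and BMF (1.45 ± 0.22 log2). The pro-apoptotic p53 targets PMAIP1 and BBC3 fell (log2 fold changes -1.20 ± 0.14 and -0.85 ± 0.22), and so did the anti-apoptotic genes BCL2L1 (-0.61 ± 0.09 log2) and MCL1 (-0.28 ± 0.07 log2).

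Proliferation genes fell and none rose: 26 of 40 fell, with a median of -0.70 log2. Their summed level was 2263 ± 268 CPM with cytokines and 4018 ± 29.6 CPM in controls. KIF20A, a kinesin of the dividing cell, had 32.3, 39.3 and 41.8 CPM with cytokines, against 101, 94.4 and 96.97 CPM in controls (-1.36 ± 0.12 log2), and BUB1, a kinase of the spindle checkpoint, 32.3, 45.04 and 40.8 CPM with cytokines, against 92.8, 95.9 and 95.02 CPM in controls (-1.26 ± 0.11 log2). CCND1 (cyclin D1) had 303, 320.3 and 331 CPM with cytokines, against 646, 615 and 630.3 CPM in controls (-0.99 ± 0.07 log2). CDKN1A, the inhibitor p21, fell too (104, 105 and 114 CPM with cytokines, against 223, 236 and 235 CPM in controls; -1.10 ± 0.08 log2). Among genes of DNA replication PCNA, at 63.0 and 65.7 mean CPM with and without cytokines, and MCM4 (70.5 ± 12.5 CPM with cytokines and 79.5 ± 1.92 CPM in controls; adjusted p = 0.25) did not pass.

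Transcription factors of inflammation rose in 12 of 34 cases and fell in 6. EHF, an epithelial ETS factor, had 27.8, 11.5 and 25.2 CPM with cytokines, against 1.88, 1.38 and 0.652 CPM in controls (4.00 ± 0.31 log2), and ELF3, of the same kind, rose by 2.16 ± 0.22 log2. ETS1 and ETS2 fell (log2 fold changes -0.54 ± 0.08 and -0.58 ± 0.09). NR4A2, a nuclear receptor of the immediate response, rose by 2.94 ± 0.37 log2, FOSB by 1.53 ± 0.19 log2, and KLF6 and ATF3 fell (log2 fold changes -0.49 ± 0.07 and -1.04 ± 0.20). Of the potassium channel and exocytosis genes 12 of 30 rose and 8 fell. KCNK12, a potassium channel gene, had 6.64, 6.02 and 11.1 CPM in the cytokine libraries and no count in any control, which is at least 127-fold higher when the controls are set to a floor of 3 counts in all. SNAP25, of the vesicle fusion machinery, rose (8.95, 7.86 and 4.69 CPM with cytokines, against 0.47, 0.46 and 0.29 CPM in controls; 4.09 ± 0.43 log2), and RAB3B, a vesicle GTPase, fell (63.4, 65.95 and 73.95 CPM with cytokines, against 124, 133 and 135 CPM in controls; -0.95 ± 0.14 log2).

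**Figure D4:**
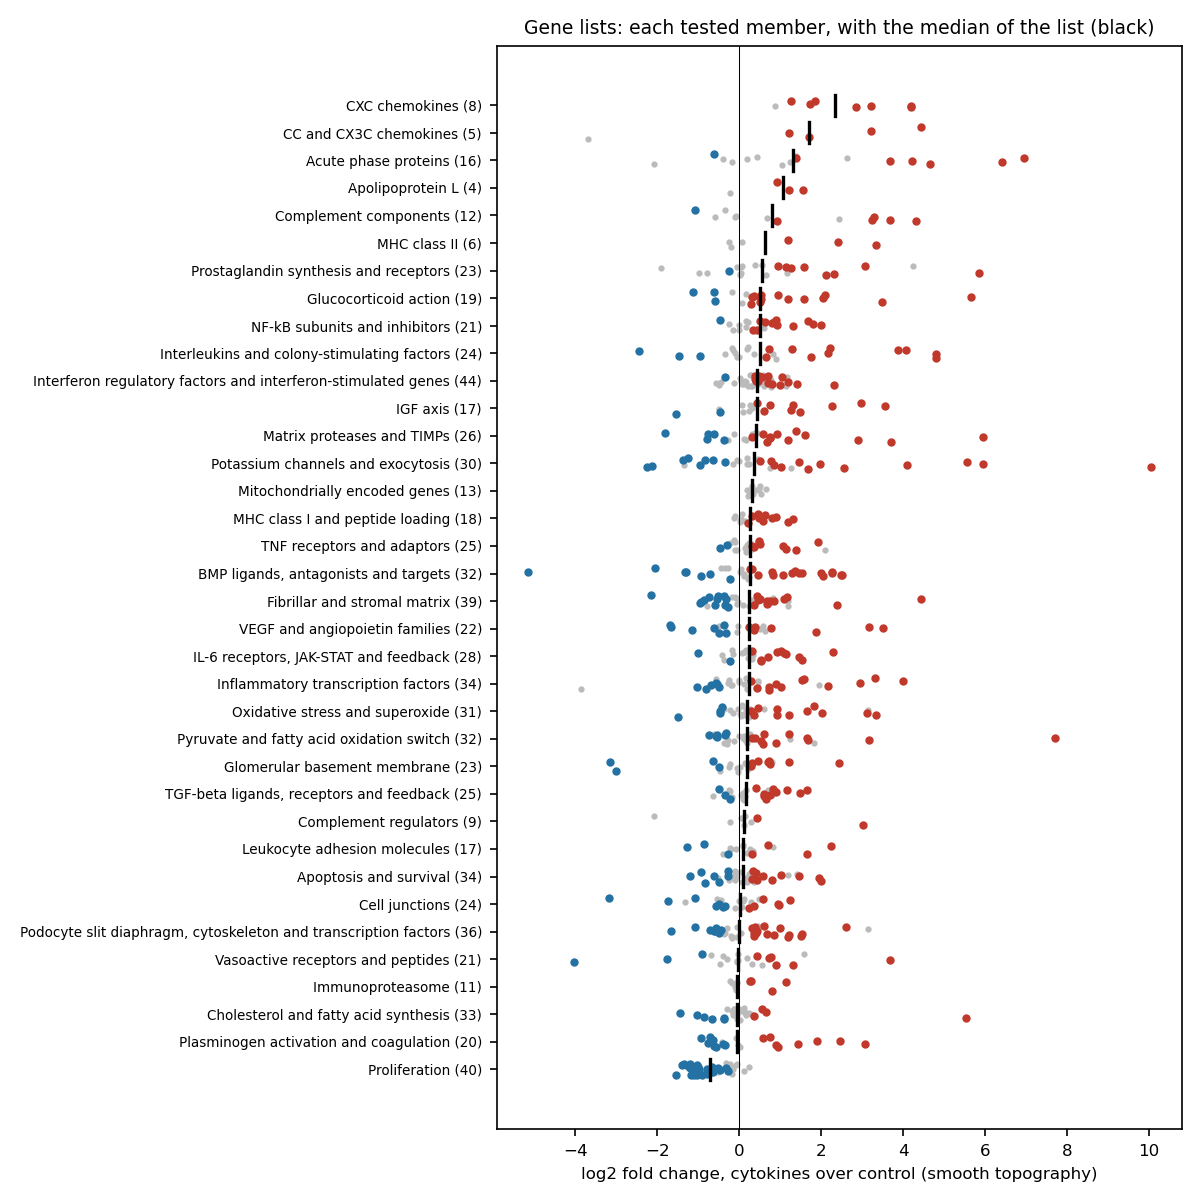
Log2 fold change (cytokines over control) of every tested member of 36 gene lists on smooth topography, ordered by the median of the list (black bar), with the number tested in brackets and red, blue and grey points for members that rose, fell or did not pass. The CXC chemokines have the highest median (2.35) and the proliferation genes the lowest (-0.70).

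Outside the lists the rule by fold named further genes. SHH, the ligand sonic hedgehog, had 28.02, 24.96 and 17.9 CPM with cytokines, against 0.705, 0.978 and 1.52 CPM in controls (4.49 ± 0.23 log2). PDE1A, a phosphodiesterase of cyclic nucleotides, had 61.4, 39.3 and 44.4 CPM with cytokines, against 1.82, 1.61 and 1.23 CPM in controls (4.94 ± 0.31 log2), while PDE1C, of the same calcium-dependent family, fell (17.2, 18.6 and 14.6 CPM with cytokines, against 71.5, 70.5 and 73.7 CPM in controls; -2.10 ± 0.13 log2). IQCD rose by 4.51 ± 0.15 log2 and MAN1A1, a mannosidase of glycan trimming, by 4.21 ± 0.35 log2. PADI2, which converts arginine to citrulline in proteins, fell (1.46, 0.536 and 2.02 CPM with cytokines, against 13.6, 15.5 and 14.3 CPM in controls; -3.41 ± 0.28 log2), as did ITPKA, a kinase of inositol trisphosphate (-2.42 ± 0.26 log2), ALPL, the tissue-nonspecific alkaline phosphatase (1.28, 2.74 and 3.00 CPM with cytokines, against 10.98, 12.2 and 9.12 CPM in controls; -2.19 ± 0.27 log2), and CNGA1, a cyclic nucleotide-gated channel gene (-2.26 ± 0.28 log2). By the change in CPM, which is not per length and so does not rank molecules, the largest gains among genes that passed without overlap between the groups were in C3, IGFBP5, CXCL1, IGFBP4 (3382, 3104 and 2953 CPM with cytokines, against 1823, 1889 and 1906 CPM in controls) and CXCL8. The mean of FN1, which did not pass, differed by more (122897 ± 24677 CPM with cytokines and 100744 ± 2012 CPM in controls). SLC7A2, a transporter of arginine, had 1745, 1711 and 1683 CPM with cytokines, against 728, 726 and 746 CPM in controls (1.22 ± 0.08 log2) and SPARC, a matricellular protein, 2630.4, 2342 and 2998 CPM with cytokines, against 1864, 1854 and 1899.9 CPM in controls (0.50 ± 0.08 log2). Under the same conditions, among the largest losses were those of ANXA2 and the cytoskeletal genes ACTG1 (4304, 5125 and 5307 CPM with cytokines, against 6135, 6359 and 6383 CPM in controls), AHNAK (-0.66 ± 0.11 log2) and FLNA (filamin A; -0.36 ± 0.09 log2).

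Whether the response differed between smooth and fractal hemispheres was asked by a test of the difference between the responses. Of 16129 genes 436 (2.70%) passed that test, 230 with a more positive response on smooth (1.43%) and 206 with a more negative one (1.28%). Of the 4144 genes changed on smooth, 323 (7.79%) were among them. Of 8 CXC chemokines 7 differed, 6 with the larger rise on smooth. CXCL6 had 116 ± 21.7 CPM with cytokines and 42.2 ± 2.62 CPM in controls on fractal topography, and its response on smooth was larger by 2.73 ± 0.18 on the log2 scale (adjusted p = 8.52e-09). CXCL5 was larger by 2.33 ± 0.19, CXCL1 by 1.51 ± 0.12 and CXCL8 by 1.31 ± 0.11. CXCL12 went the other way (-3.21 ± 0.64, adjusted p = 0.00406), with 22.6 ± 4.17 CPM with cytokines and 0.135 ± 0.12 CPM in controls on fractal topography. Of the NF-kB subunits and inhibitors 7 of 21 had a larger rise on smooth, among them TNFAIP3 (1.17 ± 0.11) and NFKBIA (0.86 ± 0.13). PTGES (2.25 ± 0.42) and IL7R (2.26 ± 0.43) responded more on smooth as well. SULT1B1, a sulfotransferase gene, had a difference of 3.09 ± 0.67.

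Falls were also deeper on smooth for some genes. OXTR differed by -1.39 ± 0.19 and COL4A4 by -2.34 ± 0.31, with 6.11 ± 0.7 CPM with cytokines and 9.66 ± 0.94 CPM in controls on fractal topography. MFAP5 differed by -1.89 ± 0.24 and BMP4 by -2.85 ± 0.71 (adjusted p = 0.0248). In the stromal matrix list 8 of 39 genes had the more negative response on smooth and 1 the more positive one. SULF1, a sulfatase of heparan sulfate, rose on smooth (9.81, 6.79 and 10.1 CPM with cytokines, against 0.94, 0.863 and 0.941 CPM in controls; 3.27 ± 0.27 log2) by less than on fractal topography (6.20 ± 0.31), a difference of -2.92 ± 0.46. For the large responses of PDK4 (7.70 ± 0.39 log2 on smooth, 8.24 ± 0.42 on fractal), SAA1 (6.41 ± 0.33 log2 and 6.24 ± 0.44) and C3 (4.32 ± 0.14 log2 and 3.92 ± 0.14) the difference did not pass (adjusted p = 0.895, 0.986 and 0.31), which does not show that they are equal. Leaving out 1 library at a time of the 12 in these groups gave 269 to 532 genes, the most without smooth cytokines replicate 2 and the fewest without fractal control replicate 3. With fractal THP-1 replicate 3 and smooth cytokines replicate 2 both left out, 1461 genes passed.

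**Figure D5:**
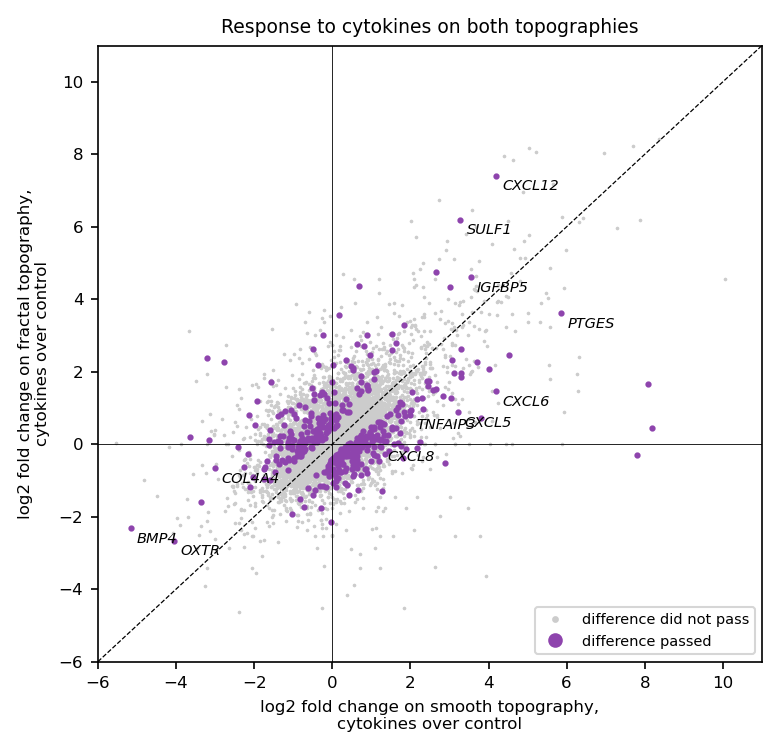
Log2 fold change with cytokines on fractal topography (vertical axis) against that on smooth topography (horizontal axis) for the 16129 genes tested, with the 436 genes whose responses differed in purple and a dashed line where both are equal. CXCL6, CXCL5 and CXCL8 lie below the line, CXCL12 and SULF1 above it.

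Set against the 3 smooth libraries with THP-1 macrophages, a comparison that shares the cytokine libraries with the first, the cytokine libraries differed in 3620 genes (22.4%), 1904 higher (11.8%) and 1716 lower (10.6%). The CXC chemokines were higher with cytokines in 6 of 8 cases (median 2.76 log2), the acute phase genes in 10 of 16 (median 1.65 log2), the glucocorticoid list in 13 of 19 (median 0.79 log2) and the IGF axis in 13 of 17 (median 0.72 log2). Interferon-stimulated genes were lower with cytokines in 15 of 44 cases and higher in 4, and MHC class I genes were lower in 7 of 18 and higher in 3. All 11 tested macrophage markers were lower with cytokines (median -4.09 log2). The expression filter covered all 18 libraries. PTPRC, TYROBP and CD53, with no count in the smooth cytokine or control libraries, passed it only through other libraries. So did SPI1, CYBB, LAPTM5, FCER1G and ITGAM, with at most 7 counts in any of those libraries. The direction of such genes was largely fixed by the filter and is no result. The median of the marker list rests mostly on them. The part of macrophage RNA in the differences from the THP-1 libraries was not tested.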

How the data were processed

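RNA was purified with oligo-dT beads and made into libraries that do not keep the strand, per the labels' protocols. The authors deposited counts per gene, not normalized; HISAT2 2.0.5 and featureCounts 1.5.0-p3 are named, with the build GRCh38, per the submitters' processing notes. All 58735 gene IDs matched GENCODE annotation. Because strand is not kept, reads of a gene and of an overlapping antisense gene cannot be told apart; 58 of the 227 genes given with values overlap an exon on the other strand, TNFAIP3, COL4A3, NID2, ICAM1 and IGFBP5 among them.

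Genes were kept by edgeR's expression filter (minimum count 10, minimum total 15). A quasi-likelihood model (edgeR 4.0.16, R 4.3.3, TMM factors) with 6 group means was fitted to all 18 libraries, leaving 12 residual degrees of freedom, and p-values were adjusted by Benjamini-Hochberg over the 16129 genes tested within each contrast. SE is the log2 fold change over the square root of F. The steps were tested on simulated data that gave every gene and library the same spread. The real libraries differed in spread, so that test does not cover a library such as smooth cytokines replicate 2. Named genes were protein-coding genes ranked by fold or CPM change, list members ranked by adjusted p, and genes of the interaction; exceptions are marked. Members and lists were chosen with earlier results of these data known. Alternatives were DESeq2 1.42.0, limma-voom 3.58.1, other scaling and filters, a replicate block and leaving out libraries. Promoter sequences are from RefSeq (GRCh38.p14). Results for a few genes are not reported here.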

Additional observations from a re-analysis of the deposited data

Results flagged for a closer look

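The genes below were singled out because their response to cytokines differed between smooth and fractal topography in edgeR's interaction test (adjusted p under 0.05). Each value is the difference of the log2 fold changes, smooth minus fractal. In all 436 genes passed that test. Of the inflammatory mediators and their control, the response was more positive on smooth than on fractal topography for CXCL6 (2.73), CSF2 (2.56), CXCL5 (2.33), IL7R (2.26), ICAM1 (2.19), CXCL1 (1.51), CXCL3 (1.42), CXCL8 (1.31), CSF1 (1.12), CXCL2 (1.09), IL6 (1.01), BIRC3 (1.35), TNFAIP3 (1.17), NFKB2 (1.06), NFKBIA (0.86), TNIP1 (0.83), NFKB1 (0.77), ZC3H12A (0.70) and TNFRSF11B (0.85). The same held for genes of prostaglandins, complement, antigen handling and innate sensing, namely PTGES (2.25), PTGS2 (0.75), PLA2G4A (0.74), CFB (1.44), CTSS (1.66), TAPBP (0.94), ERAP1 (0.47), IFIH1 (1.27), PARP14 (0.43) and SOD2 (1.15). Among matrix, junction and growth factor genes it held for LAMB3 (1.29), NID2 (0.67), PAPPA (1.24), GREM1 (1.06), SMAD3 (0.85), PMEPA1 (0.66), ATOH8 (0.73), ID3 (0.60), PDPN (0.71), JUP (0.64), SERPINB2 (2.03) and HAS3 (0.99). It also held for SULT1B1 (3.09), IQCD (2.05), INSIG1 (1.94), SLC7A2 (1.12), SLC39A14 (0.62), SCD (0.91) and MCM4 (0.59). The response was more negative on smooth topography for the basement membrane and matrix genes COL4A3 (-3.29), COL4A4 (-2.34), MFAP5 (-1.89), BGN (-1.81), COL6A3 (-0.71), VCAN (-0.70) and SULF1 (-2.92). It was likewise more negative for the secreted factors and receptors CXCL12 (-3.21), BMP4 (-2.85), IGFBP5 (-1.06), OXTR (-1.39), GDF15 (-0.87), EDN1 (-0.79), CLU (-1.32) and PTGIS (-0.95). Structural, signalling and transcription genes with a more negative response were TAGLN (-1.40), ITGB4 (-1.21), NTNG1 (-1.07), ITPKA (-2.33), PDE1C (-0.93), ERRFI1 (-1.13), CDKN1A (-1.28), FOSB (-1.51), CPT1A (-0.72) and BCL6 (-0.59). No cause of these differences was tested.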

How the results depend on the processing

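The 4144 genes changed with cytokines on smooth topography became 4042 to 4791 under the other scalings, filters, tools and fits, 5664 when fractal THP-1 replicate 3 and smooth cytokines replicate 2 were both left out, and 3236 to 4012 with 1 library of these groups left out. A log2 fold change of at least 1 left 1037 (671 higher, 366 lower). The interaction, at 436 genes, depended more on the fit. It gave 688 with DESeq2 (350 more positive on smooth, 338 more negative), 982 with only the groups compared (531 and 451), 1461 without the pair of libraries named above (772 and 689) and 174 with a difference of at least 1 (81 and 93). Leaving out 1 library gave 269 to 532, with 152 to 283 more positive and 116 to 249 more negative. The comparison with THP-1 libraries gave 1076 at a log2 fold change of at least 1 (408 higher, 668 lower). Whether replicate numbers pair the libraries was not settled. Same-numbered deviations correlated weakly, at 0.019, 0.013 and 0.039, but each library correlated best with its own number. The other pairs ran from -0.025 to 0.0064. With the replicate block 4063, 416 and 3518 genes passed, and PTX3 did not (adjusted p = 0.0668). PTX3 also missed the threshold without a filter (0.112) and with only the groups compared (0.188). Of the values for 227 named genes under the alternatives 3390 kept direction and side of the threshold, 9 lost it (PTX3, CSF2) and 5 gained it (FN1, STAT3, EHD3), and none reversed. The causes were not tested. Low counts limit the rarest genes.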
